A study of Mus musculus with 6 samples.

Results

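The NR4A, KLF and DUSP early response genes examined here are 10 named genes of the 55401 in the count table, found by matching their mouse symbols to Ensembl identifiers. They are Nr4a1, Nr4a2 and Nr4a3, then Klf2, Klf4 and Klf6, then Dusp1, Dusp2, Dusp5 and Dusp6, and each matched 1 identifier. RNA was sequenced from CD11b-selected brain cells of 6-week-old untreated female mice of 2 strains, with 3 libraries from MRL/lpr mice, which develop lupus and carry the lpr mutation of Fas, and 3 from MRL/mpj mice, the control strain on the same MRL background without that mutation. CD11b is found on microglia and also on other myeloid cells, and the cells were freed by warm enzymatic digestion before a Percoll gradient. The study counts its replicates in mice, as many in each strain as there are libraries, while the labels tie no library to an animal. The median squared difference between libraries of one strain was 8.36 to 17.45 times what counting noise gives if each count is 1 read. A count may stand for fewer reads, which would make this ratio smaller. The p-values measure the spread between libraries.

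NR4A proteins are nuclear receptors that act without a known natural ligand and are switched on at the level of transcription. KLF2, KLF4 and KLF6 are zinc-finger transcription factors, and KLF2 and KLF4 are known to restrain inflammatory gene expression in endothelium and myeloid cells. DUSP1, DUSP2, DUSP5 and DUSP6 are phosphatases that switch off MAP kinases, the ERK, JNK and p38 enzymes that relay growth and stress signals, and so close a feedback loop. Most of these genes are transcribed within minutes of a stimulus, tissue digestion among them, and CREB (through the cAMP response element, CRE) and SRF (through the CArG box) are among the factors known to switch such genes on.

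The promoters of 5 of the genes are shown because these genes cover each kind of response described further on (Nr4a1, Dusp1 and Dusp5 higher in MRL/lpr, Nr4a2 and Dusp6 not past the test) and because they differ in these elements. The sequences are from RefSeq on GRCm38.p6, run 5′ to 3′ on the strand of the gene, and stop at the RefSeq start or at the first base in a GENCODE exon of the gene. Capitals mark the CRE half-site (TGACG or its reverse complement) and the CArG box. The positions are chr15:101266596-101266845 (plus strand) for Nr4a1, chr2:57124004-57124253 (minus) for Nr4a2, chr17:26508520-26508722 (minus) for Dusp1, chr19:53528895-53529108 (plus) for Dusp5 and chr10:99262981-99263230 (plus) for Dusp6.
Nr4a1: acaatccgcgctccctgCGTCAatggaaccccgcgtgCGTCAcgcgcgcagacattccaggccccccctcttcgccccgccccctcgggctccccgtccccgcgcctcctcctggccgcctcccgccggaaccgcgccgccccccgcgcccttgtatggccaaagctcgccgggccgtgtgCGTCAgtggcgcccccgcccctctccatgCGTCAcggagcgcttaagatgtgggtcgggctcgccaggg
Nr4a2: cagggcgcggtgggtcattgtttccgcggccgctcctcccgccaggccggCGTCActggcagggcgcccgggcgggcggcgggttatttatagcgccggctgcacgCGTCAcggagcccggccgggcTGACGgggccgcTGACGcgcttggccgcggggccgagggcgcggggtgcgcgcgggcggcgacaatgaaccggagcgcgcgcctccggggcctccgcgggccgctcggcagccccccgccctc
Dusp1: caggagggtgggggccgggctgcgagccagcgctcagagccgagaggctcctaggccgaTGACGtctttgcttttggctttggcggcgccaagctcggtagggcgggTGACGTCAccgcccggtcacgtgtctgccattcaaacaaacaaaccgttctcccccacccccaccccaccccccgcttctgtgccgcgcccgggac
Dusp5: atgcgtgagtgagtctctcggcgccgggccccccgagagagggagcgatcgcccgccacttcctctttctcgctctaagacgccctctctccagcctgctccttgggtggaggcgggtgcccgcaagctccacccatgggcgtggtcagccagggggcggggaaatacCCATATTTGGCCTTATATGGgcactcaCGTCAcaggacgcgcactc
Dusp6: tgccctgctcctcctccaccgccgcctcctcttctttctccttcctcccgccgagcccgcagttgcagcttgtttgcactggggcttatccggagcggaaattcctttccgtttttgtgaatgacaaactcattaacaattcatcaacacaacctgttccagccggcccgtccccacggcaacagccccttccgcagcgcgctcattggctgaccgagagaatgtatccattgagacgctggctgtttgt

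Over the 250 bases before the RefSeq start, searched on both strands, the CRE half-site was present in 7 of the 10 genes (Nr4a1, Nr4a2, Nr4a3, Klf2, Klf4, Dusp1 and Dusp5), against 17.9% of 27025 promoters of the same length. Nr4a1, Nr4a2 and Nr4a3 each held 4 half-sites. In Dusp1 a pair of half-sites overlapped to form the full CRE, TGACGTCA, which 1.62% of promoters held. Dusp5 was the 1 gene of the 10 with a CArG box and had a pair of them side by side, 82 and 72 bases before the start, against 1.4% of promoters. The promoters of Klf6, Dusp2 and Dusp6 held none of these elements in this window. Of these genes, Klf6 and Dusp2 rose in MRL/lpr and Dusp6 did not pass the test. The GC box (GGGCGG) was present in 9 of the 10, all but Dusp6, against 32.9% of promoters, and the CACCC box that KLF proteins can bind in 6 against 51.3%. The AP-1 site (TGANTCA) and the NR4A site (AAAGGTCA) were in none of the 10, and in 6.87% and 1.31% of promoters. The 10 windows were rich in G and C, with a median of 69.4% against 52.0% over all promoters, and these matches are a description of letters, not of bound sites.

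Total counts per library ran from 45481609 to 49846634. Fas counted 461, 282 and 298 in MRL/lpr and 426, 432 and 362 in MRL/mpj (log2 fold change -0.06, adjusted p = 0.887 from edgeR), and since counts cannot show which transcripts carry the lpr mutation, they do not check the labels. Microglial identity genes were abundant in each library, with Csf1r at a mean of 10450 CPM (counts scaled to a common library total, with TMM factors) in MRL/lpr and 9949 CPM in MRL/mpj. MRL/lpr replicate 3 stood apart from the other MRL/lpr libraries, with 6.38% of its counts in the gene CT010467.1. Results that this library changed are given without it as well.

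Of the 10 genes, 8 rose in the MRL/lpr libraries and 2 did not pass the test (quasi-likelihood test of edgeR, with an adjusted p under 0.05 after the Benjamini-Hochberg method over all 19554 genes tested). Across all genes tested, 11.1% were higher and 9.06% were lower by the same rule, or 17.1% and 10.4% of the 6996 genes with a mean of at least 1000 counts. The MRL/lpr libraries lay above the MRL/mpj libraries without overlap in the same 8 genes, against 19.6% of all genes. The median log2 fold change of the 10 was 0.91, and that of all genes was -0.01. With the fold-change minimum of the study (a log2 fold change of at least 1) 3 genes were upregulated, against 4.67% of all genes, namely Nr4a1, Nr4a3 and Klf6. Nr4a1, at 1.002, lay just inside that minimum and Dusp5, at 0.998, just outside it. The count therefore moved with single libraries. Leaving out MRL/lpr replicate 2 left 1 gene (Nr4a3), leaving out replicate 1 of MRL/lpr or replicate 3 of MRL/mpj left 2, and 4 genes passed when MRL/lpr replicate 3 was removed. The count was 2 with DESeq2 (Nr4a3 and Klf6), and 1 with scaling by library size only and with limma on FPKM. The share of mitochondrial counts also differed between the strains, at 3.06% to 3.49% in MRL/lpr and 5.84% to 6.38% in MRL/mpj, and its part in the result was not tested. In bulk RNA of this kind, more cells with a transcript and more transcript per cell cannot be told apart.

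**Figure D1:**
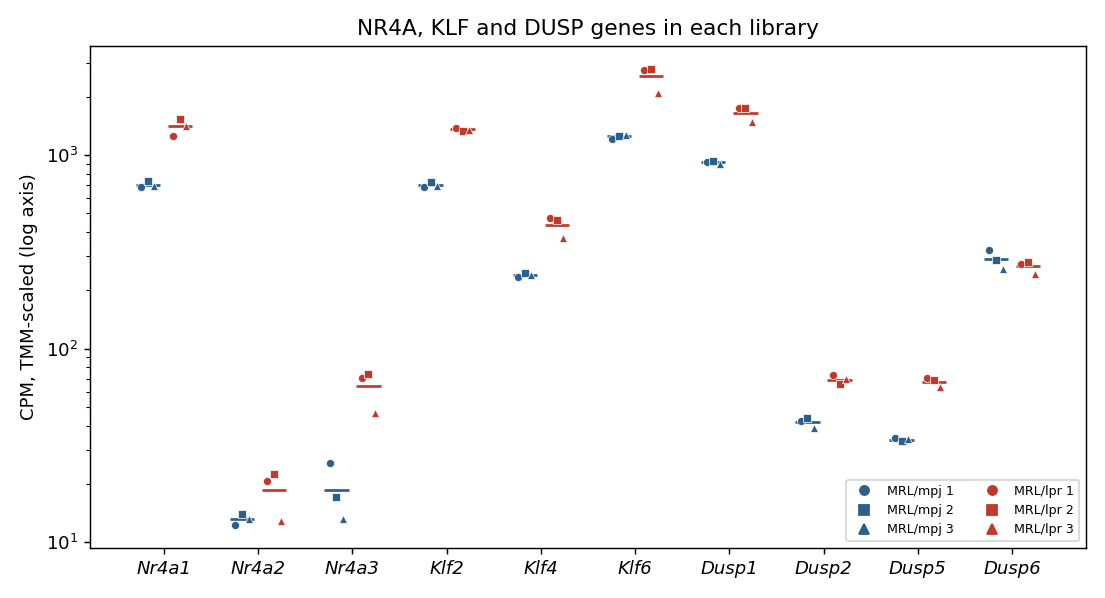
CPM scaled by TMM (log axis) of the 10 genes in each library. Points are single libraries, with MRL/mpj in blue and MRL/lpr in red, marker shapes stand for replicates 1 to 3, and bars are means of 3 libraries. The strains separate in 8 genes and overlap in Nr4a2 and Dusp6, and MRL/lpr replicate 3 (red triangle) is the lowest red point in 7 of the 10.

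Nr4a1, which restrains inflammatory responses of macrophages, had 1264, 1544 and 1414.5 CPM in MRL/lpr replicates 1, 2 and 3, and 682, 732 and 694 CPM in the MRL/mpj replicates. Each MRL/lpr library was well above each MRL/mpj library. The log2 fold change was 1.002 (SE 0.08, adjusted p = 2.44e-05 from edgeR), with a 95% interval of 0.83 to 1.18. Nr4a3 was far less abundant and more variable, with 70.8, 74.4 and 46.3 CPM in MRL/lpr and 25.7, 17.1 and 13.1 CPM in MRL/mpj. It had the highest fold change of the 10, at 1.77 on the log2 scale (SE 0.30, adjusted p = 0.00931 from edgeR), and also the widest interval, from 1.04 to 2.51.

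Nr4a2, better known for its part in dopamine neurons and also induced in activated microglia, had 20.7, 22.4 and 12.9 CPM in MRL/lpr and 12.3, 14.0 and 13.1 CPM in MRL/mpj. Replicates 1 and 2 of MRL/lpr were above the MRL/mpj libraries, and replicate 3 was among them. The log2 fold change was 0.51 (SE 0.19, adjusted p = 0.102 from edgeR). Without MRL/lpr replicate 3 it was 0.72, with an adjusted p of 0.0027, against 11.6% of all genes higher in that fit, so the call for this gene turns on 1 library.

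The 3 KLF genes rose by similar amounts. Klf2 had the smallest spread of the 10 in MRL/lpr, at 1386, 1334 and 1355 CPM in MRL/lpr against 687, 731 and 689 CPM in MRL/mpj, with a log2 fold change of 0.95 (SE 0.06, adjusted p = 4.61e-06 from edgeR). Klf4, a factor of stem cells and of monocyte differentiation, had 475, 465 and 374 CPM against 234, 245 and 241 CPM. Its log2 fold change was 0.87 (SE 0.09, adjusted p = 0.000152 from edgeR).

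Klf6, which acts with NF-κB in macrophages, was the most abundant of the 10 in CPM, with 2768, 2797 and 2102 CPM in MRL/lpr and 1218, 1263 and 1275 CPM in MRL/mpj. Its log2 fold change was 1.03 (SE 0.10, adjusted p = 0.000137 from edgeR). For Klf4 and Klf6, MRL/lpr replicate 3 lay 20.3% and 24.4% below the mean of the other MRL/lpr libraries, though still above each MRL/mpj library.

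Dusp1, the nuclear phosphatase that turns off p38 and JNK, had 1746, 1753 and 1476 CPM in MRL/lpr and 918, 936 and 897 CPM in MRL/mpj. The log2 fold change was 0.85 (SE 0.07, adjusted p = 5.09e-05 from edgeR). In GENCODE this gene overlaps Ergic1 on the other strand, and because the sources used here do not say whether counting used strand, part of its count could belong to Ergic1, which itself had 3142 to 4402 counts against at least 46698 for Dusp1.

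Dusp2 and Dusp5, both nuclear phosphatases, Dusp5 selective for ERK, rose too. For Dusp2, MRL/lpr had 72.8, 65.5 and 69.4 CPM and MRL/mpj had 42.1, 43.7 and 38.8 CPM, with a log2 fold change of 0.74 (SE 0.08, adjusted p = 0.000271 from edgeR). For Dusp5, the values were 70.2, 69.1 and 63.3 CPM against 34.3, 33.2 and 33.9 CPM, with a log2 fold change of 0.998 (SE 0.08, adjusted p = 2.9e-05 from edgeR). Both strains were tight in Dusp5, and the gap between them was many times the spread within either.

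Dusp6 did not pass the test. This cytoplasmic enzyme, selective for ERK and itself a usual readout of ERK activity, had 275, 282 and 244 CPM in MRL/lpr and 325, 288 and 257 CPM in MRL/mpj. The strains overlapped, with the highest value in MRL/mpj replicate 1 and the lowest in MRL/lpr replicate 3. Its log2 fold change was -0.12 (SE 0.09, adjusted p = 0.438 from edgeR), and the 95% interval, from -0.33 to 0.09, leaves out changes of the size seen in the other DUSP genes.

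Levels were compared between genes with the deposited FPKM (fragments scaled to transcript length and library total). Klf2 was the highest of the 10 in both strains, at 629 ± 24.6 FPKM (SD, n = 3) in MRL/lpr and 354 ± 12.7 FPKM (SD, n = 3) in MRL/mpj, between the 59th and the 96th most abundant gene in each library. Klf6 and Dusp1 followed, at 500 ± 91.0 and 429 ± 53.6 FPKM (SD, n = 3) in MRL/lpr and at 265 ± 6.51 and 258 ± 5.43 FPKM (SD, n = 3) in MRL/mpj, and their libraries overlapped in both strains. Nr4a1 came next, at 343 ± 35.9 FPKM in MRL/lpr, where it overlapped Dusp1, and 186 ± 6.998 FPKM in MRL/mpj, where it did not (SD, n = 3).

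The order of the lower genes differed between the strains. In MRL/mpj, Dusp6 at 86.1 ± 10.2 FPKM (SD, n = 3) stood above Klf4 at 73.2 ± 1.67 FPKM (SD, n = 3). In MRL/lpr, Klf4 at 123 ± 19.1 FPKM (SD, n = 3) stood above Dusp6 at 73.0 ± 7.64 FPKM (SD, n = 3), and within each strain the libraries of this pair did not overlap. Dusp2 and Dusp5 followed in both strains, from 18.0 to 31.7 FPKM and from 12.5 to 24.7 FPKM over the 6 libraries. The lowest genes were Nr4a2 and Nr4a3, which overlapped in MRL/mpj at 3.003 ± 0.195 and 2.89 ± 1.001 FPKM (SD, n = 3) and separated in MRL/lpr at 3.94 ± 1.17 and 9.16 ± 2.44 FPKM (SD, n = 3).

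As a share of the summed FPKM of its family, Nr4a1 made up 95.5% to 97.4% of the NR4A signal in each of the 6 libraries. The small share of Nr4a2 was 0.765% to 1.35% in MRL/lpr and 1.5% to 1.6% in MRL/mpj, without overlap. In the KLF family, Klf2 held 47.8% to 54.9% in MRL/lpr and 50.2% to 51.8% in MRL/mpj. Klf6 held 35.9% to 42.1% and 37.7% to 39.1%, so both genes overlapped between the strains. These overlaps came from MRL/lpr replicate 3. Without it, Klf2 held 47.8% to 48.8% and Klf6 41.0% to 42.1% in MRL/lpr. Klf4 held 9.2% to 10.1% in MRL/lpr, below its 10.5% to 10.6% in MRL/mpj. Among the 4 DUSP genes, Dusp1 held 76.3% to 77.9% in MRL/lpr and 66.7% to 70.2% in MRL/mpj, while Dusp6 held 12.9% to 13.3% and 21.2% to 25.0%. The summed DUSP signal ran from 481.5 to 592 FPKM in MRL/lpr and from 359 to 387 FPKM in MRL/mpj.

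Ratios of FPKM between genes of one family were then taken within each library, which removes its scaling. The ratio of Dusp6 to Dusp1 was 0.166, 0.170 and 0.175 in MRL/lpr and 0.374, 0.326 and 0.302 in MRL/mpj. The ratio of Dusp6 to Dusp5 was 3.09, 3.22 and 3.04 against 7.48, 6.86 and 5.97. Both ratios separated the strains, by -0.97 and -1.11 on the log2 scale, with an exact two-sided permutation p of 0.1 each, the smallest that 3 against 3 libraries can give (0.2 adjusted over the 8 ratios computed).

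The ratio of Nr4a2 to Nr4a1 was lower in each MRL/lpr library, at 0.0141, 0.0125 and 0.00785 against 0.0156, 0.0165 and 0.0163, and that of Dusp5 to Dusp1 was higher in each, by 0.15 on the log2 scale (exact permutation p = 0.1 for both, 0.2 adjusted). The strains overlapped in the ratios of Nr4a3 to Nr4a1, Klf4 to Klf2, Klf6 to Klf2 and Dusp2 to Dusp1. Their exact permutation p-values ran from 0.2 to 0.8. Except for Klf4 to Klf2, these overlaps came from MRL/lpr replicate 3 alone. Nr4a3 to Nr4a1 was 0.0328, 0.0282 and 0.0191 in MRL/lpr against 0.0221, 0.0137 and 0.011 in MRL/mpj. Klf6 to Klf2 was 0.84, 0.882 and 0.653 against 0.745, 0.727 and 0.779. Dusp2 to Dusp1 was 0.0689, 0.0618 and 0.0777 against 0.0758, 0.0773 and 0.0715.

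**Figure D2:**
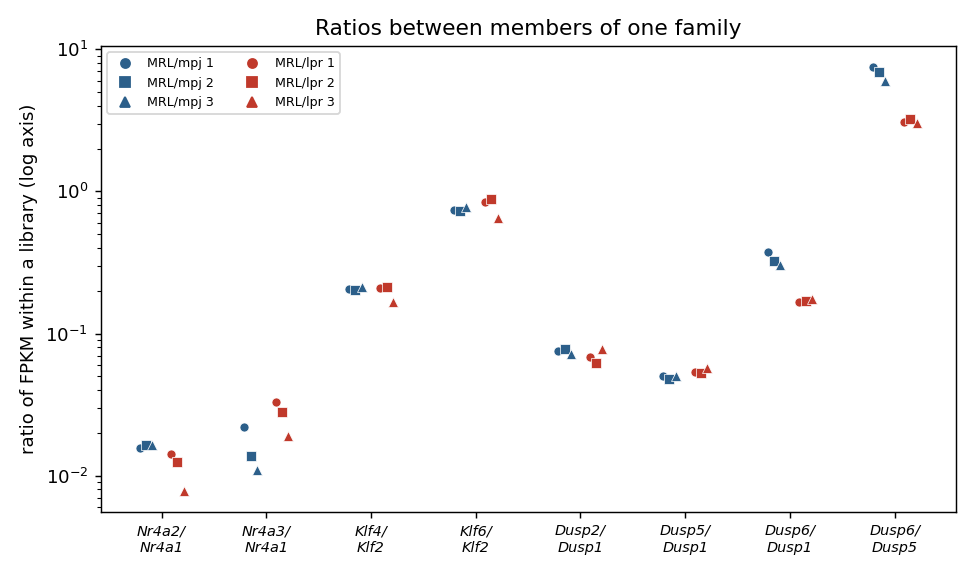
Ratio of the deposited FPKM of a gene to that of another gene of its family within each library (log axis). Blue points are MRL/mpj and red points MRL/lpr, with shapes for replicates 1 to 3. Dusp6 over Dusp1 lies at 0.166 to 0.175 in MRL/lpr and 0.302 to 0.374 in MRL/mpj. The KLF ratios overlap, that of Klf6 to Klf2 only through MRL/lpr replicate 3.

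Among the MRL/lpr libraries, replicate 3 was the lowest in 7 of the 10 genes, against 37.4% of all genes tested. It lay 40.2% below the mean of replicates 1 and 2 in Nr4a2 and 36.3% below in Nr4a3, and within 1% of that mean in Nr4a1, Klf2 and Dusp2. The genes of the group thus did not vary as one between libraries of a strain. The coefficient of variation in MRL/lpr ran from 1.93% for Klf2 to 27.2% for Nr4a2. In MRL/mpj it ran from 1.71% for Dusp5 to 34.6% for Nr4a3, and the medians over genes with a mean of at least 1000 counts were 8.40% in MRL/lpr and 5.44% in MRL/mpj.

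The relatives of these genes did not all follow. The counts in this and the following lists stand beside 11.1% higher and 9.06% lower over all genes tested. Of the other KLF genes, 12 of 14 had enough counts to be tested, and 5 rose and 1 fell, with a median log2 fold change of 0.22. The largest increases were those of Klf10, a gene induced early by TGF-β, at 1.001 (SE 0.09, adjusted p = 7.41e-05 from edgeR), and of Klf7, at 0.76 (SE 0.10, adjusted p = 0.00053 from edgeR). Klf8 had a log2 fold change of -2.05 but only 23, 14 and 4 counts in MRL/lpr against 69, 60 and 60 in MRL/mpj, and its adjusted p of 0.0379 from edgeR rose above 0.05 without MRL/lpr replicate 2 or any 1 MRL/mpj library, to at most 0.113.

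Of the 6 other MAP kinase phosphatases, 4 rose and 1 fell, with a median log2 fold change of 0.62. Dusp16, which acts mainly on JNK and p38, rose by 0.74 on the log2 scale (adjusted p = 0.00103 from edgeR), and Dusp4, an inducible nuclear enzyme, by 0.69 (adjusted p = 0.000525 from edgeR). The rest of the list is named after its values were seen. Dusp8 rose by 0.63 (adjusted p = 0.000615 from edgeR). Dusp10 rose by 0.61 (adjusted p = 0.0326 from edgeR), a call lost without MRL/lpr replicate 1 or 2 (adjusted p = 0.111 and 0.0941) and without MRL/mpj replicate 2 or 3 (0.116 and 0.0879), as well as with scaling by library size only (0.0808) and limma on FPKM (0.105 to 0.162). Dusp7, a cytoplasmic ERK phosphatase, fell by 0.42 (adjusted p = 0.0199 from edgeR), a call lost without MRL/lpr replicate 2 (adjusted p = 0.0684) or MRL/mpj replicate 1 or 2 (0.0682 and 0.0865), and Dusp9 had at most 30 counts in any library.

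**Figure D3:**
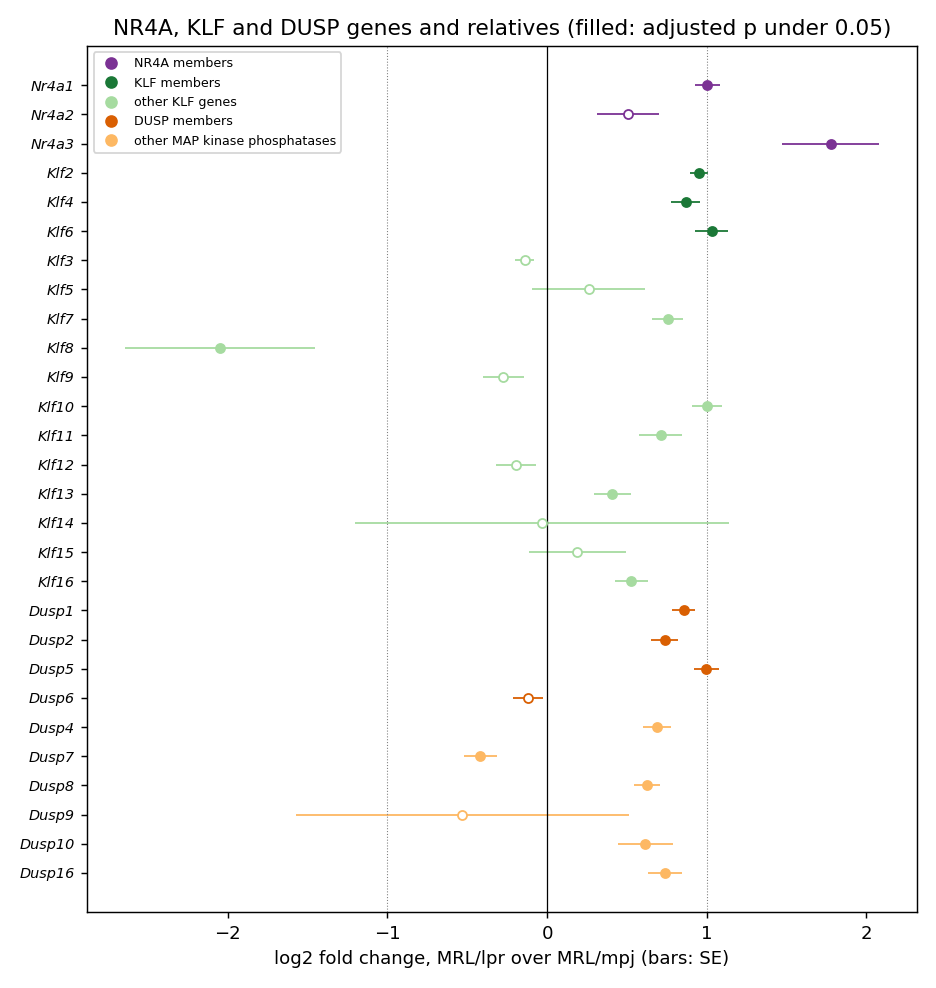
Log2 fold change of MRL/lpr over MRL/mpj with its standard error for the 10 genes and for the other KLF genes and MAP kinase phosphatases tested. Filled points have an adjusted p under 0.05 from edgeR, and dotted lines mark -1 and 1. The 3 KLF genes lie between 0.87 and 1.03, and Dusp6 and Dusp7 are at -0.12 and -0.42.

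The kinases that DUSP enzymes act on, and those just above them, were measured as 17 genes. Of these, 4 rose and 13 did not pass the test (median log2 fold change 0.06). Across all genes tested 11.1% were higher, or 17.1% of those with a mean of at least 1000 counts. Mapk14, which encodes p38α, rose by 1.24 (SE 0.17, adjusted p = 0.00186 from edgeR). Mapk11, which encodes p38β, rose by 1.21 (adjusted p = 0.0201 from edgeR), a call lost when MRL/lpr replicate 2 or MRL/mpj replicate 3 was left out (adjusted p = 0.0545 and 0.0522). The number of kinase genes that rose was 2 without MRL/lpr replicate 2, and 5 when replicate 3 of MRL/lpr was left out.

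Of 14 genes known to respond to ERK or to feed back on it, 6 rose, 2 fell and 6 did not pass the test, with a median log2 fold change of 0.25, and 8 rose without MRL/lpr replicate 3. Errfi1, an inhibitor of the EGF receptor, had 544, 562 and 453 CPM in MRL/lpr against 199, 199 and 194 CPM in MRL/mpj, and rose by 1.40 (adjusted p = 5.52e-06 from edgeR). Phlda1 rose by 1.36 (adjusted p = 4.51e-06 from edgeR). The PEA3-family factors Etv4 and Etv5, known targets of ERK signalling, went the other way. Etv4 had 5.53, 6.42 and 5.05 CPM against 13.04, 14.0 and 13.1 CPM and fell by 1.24 (adjusted p = 0.000351 from edgeR). Etv5 fell by 0.23 (adjusted p = 0.0279 from edgeR), a call held only without MRL/lpr replicate 3 among the 6 fits that left out 1 library, with adjusted p-values of 0.076 to 0.107 in the others.

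Among 13 genes of factors that are known to switch early response genes on (CREB, CRTC, SRF, ELK and MEF2 genes), 2 rose. The other 11 did not pass the test, and the median log2 fold change was 0.16. That count is near the share of all genes tested that were higher, 11.1%, or 17.1% of those with a mean of at least 1000 counts. Mef2d rose by 0.45 (adjusted p = 0.000971 from edgeR). Crtc2 rose by 0.26 (adjusted p = 0.0449 from edgeR), a call kept only without MRL/lpr replicate 3 among the 6 fits without 1 library, with adjusted p-values of 0.0813 to 0.161 in the others. Without MRL/lpr replicate 3, 4 of the 13 rose. Of 5 genes known to respond to KLF2 in T cells or endothelium, 2 rose, among them Itgb7, an integrin subunit of lymphocytes, by 1.71 on the log2 scale (adjusted p = 0.002485 from edgeR), and 3 did not pass the test.

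The other immediate early genes moved with the 10. Of 16 listed, 14 rose, with a median log2 fold change of 0.89. Egr1 rose by 0.98, Fos by 0.81 and Jun by 0.74. The largest increases were those of the AP-1 subunit gene Fosl1, at 2.29 (SE 0.31, adjusted p = 0.000719 from edgeR) from a mean of 1.02 CPM in MRL/mpj, and of Ier2, at 1.17 (SE 0.07, adjusted p = 3.4e-06 from edgeR). MRL/lpr replicate 3 was the lowest MRL/lpr library in 11 of the 16.

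A list of genes known to be induced while tissue is dissociated, mainly heat shock genes, NF-κB regulators and chemokines and without any of the 10, also rose, in 13 of 15 genes (14 without MRL/lpr replicate 3), with a median log2 fold change of 0.81. Nfkbiz rose by 1.73 and the chaperone gene Dnajb1 by 1.26 on the log2 scale (adjusted p = 1.14e-06 and 3.88e-06 from edgeR). Dusp1, Nr4a1 and the KLF genes are themselves known to be induced by dissociation. MRL/lpr replicate 3 was the lowest MRL/lpr library in 14 of the 15. The labels used here give no time of preparation for the libraries, and the part of dissociation in the result was not tested.

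**Figure D4:**
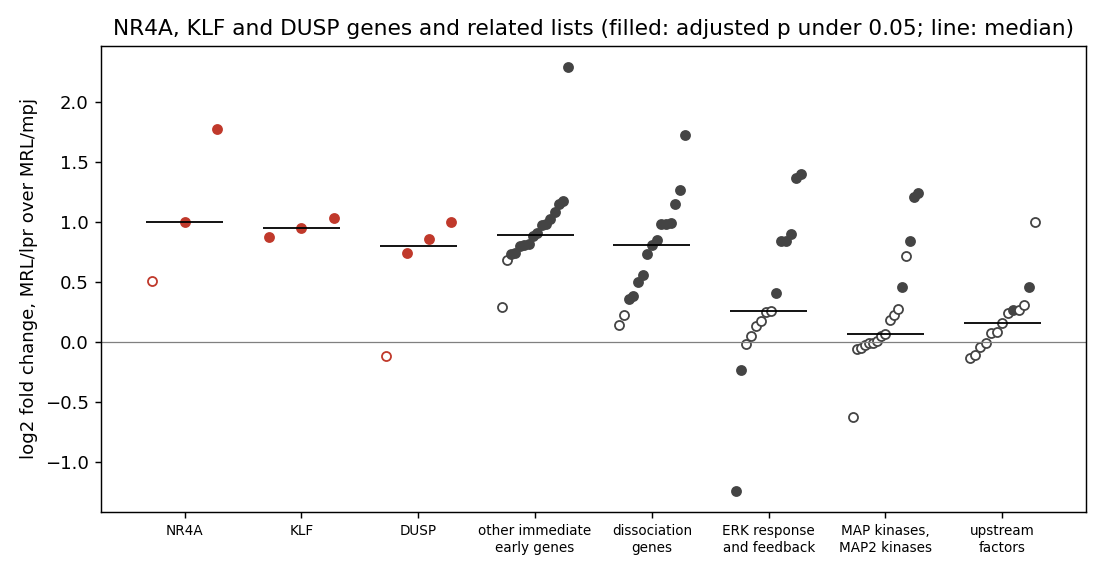
Log2 fold change of MRL/lpr over MRL/mpj for each tested gene of the 3 families (red) and of 5 related lists (grey), with lines at the medians. Filled points have an adjusted p under 0.05 from edgeR. The other immediate early and dissociation genes have medians of 0.89 and 0.81, near those of the families, and the MAP kinases and upstream factors have medians of 0.06 and 0.16.

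Markers of other cells in which these genes are also expressed were read in the same libraries, as summed CPM scaled by library size only. Calls of higher or lower markers come from the fit with TMM factors, 0.9196 to 0.9784 in MRL/lpr and 1.041 to 1.046 in MRL/mpj. Dividing by these factors raises the sums in MRL/lpr and lowers those in MRL/mpj. The 10 endothelial markers, a cell type rich in KLF2 and KLF4, summed to 2220 to 2250 in MRL/lpr and 2240 to 2290 in MRL/mpj. Of these markers 2 rose and 1 fell, and with TMM each MRL/lpr sum lay above each MRL/mpj sum. The 9 neutrophil markers summed to 604 to 648 against 501 to 562, with 4 higher. Of 9 T cell markers 7 rose and 1 fell (Il7r), with a median log2 fold change of 2.53. Il7r was the most abundant of them, at means of 66.3 and 88.1 CPM with TMM, and weighed most in the summed level. Scaled by library size only, that level was 80.3 to 91.6 against 95.1 to 100, and with TMM the strains overlapped. The other 8 summed to 17.6 to 24.8 in MRL/lpr against 4.79 to 5.32 in MRL/mpj.

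The 7 monocyte markers summed to 89.5 to 97.1 against 101 to 112 by library size, with 3 higher and 1 lower. With TMM the strains overlapped in this sum. The 8 neuronal markers summed to 24.1 to 26.9 against 42.7 to 50.3, with 2 lower. The 12 microglia markers summed to 23200 to 25200 against 28600 to 30000, with 3 lower. Border macrophage markers summed to 49.3 to 54.2 against 64.1 to 71.2 (2 of 8 lower), and astrocyte markers to 113 to 158 against 203 to 210 (1 of 7 lower). Oligodendrocyte markers summed to 120 to 133 against 138 to 164 (1 of 6 lower), and these sums overlapped with TMM. B cell markers summed to 13.9 to 14.6 against 11.5 to 15.7, and erythrocyte markers to 669 to 1040 against 638 to 701 (1 of 5 higher). With TMM each MRL/lpr erythrocyte sum lay above each MRL/mpj sum. Ependymal and choroid plexus markers summed to 349 to 363 against 1100 to 1190, with 4 of 8 lower. Each marker in these lists had over 10 counts in some library, and the part of other cells in the result was not tested.

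For 1 gene of each family, the 3 genes with the most similar profile were taken among 13095 genes with a mean of at least 100 counts, by the root mean square difference of log2 CPM centred on its mean over the 6 libraries. For Nr4a1 they were Smox, Nfkb2 and Cxcl16, at 0.0667, 0.0702 and 0.0742. For Klf2 they were Nfkbib, Fosl2 and Eif2ak2, at 0.0296, 0.0337 and 0.0361. For Dusp1 they were Gimap6, Pnrc1 and Ier3, at 0.0187, 0.0294 and 0.0299. Of the other 9 genes of the group, Klf4 came closest to Dusp1, as the 7th most similar gene at 0.0362, Dusp5 closest to Klf2 at 0.066, and Klf2 closest to Nr4a1 at 0.103.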

How the data were processed

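The deposited values are raw counts for each gene, as whole numbers, and FPKM, which the authors scaled to transcript length and library total. The study's methods give trimming with Cutadapt, alignment with HISAT2 and testing with DESeq2. The submitters' processing notes name cutadapt 1.9.3, HISAT2 2.0.4, Cuffdiff 2.2.1, Cufflinks and the GRCm38 genome, and the counting tool and annotation are not given in the sources used here. The labels describe removal of ribosomal RNA from total RNA, the methods purification of mRNA. Symbols came from GENCODE M21 (GRCm38), which matched 55141 of 55401 identifiers, and promoters came from RefSeq for all 10 genes.

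Counts were filtered with filterByExpr (minimum count 10, minimum total 15), scaled by TMM and tested with edgeR 4.0.16 in R 4.3.3, with robust dispersions, no covariate and Benjamini-Hochberg adjustment. Each SE is the log2 fold change divided by the root of its F statistic. Total counts ran from 45481609 to 49846634, and genes with 4 counts outnumbered those with 3 or 5 (1234, 377 and 254 in MRL/lpr replicate 1), so a low count may stand for fewer reads than it states. The alternatives were DESeq2 1.42.0, limma 3.58.1 on log2(FPKM + 1) and log2(FPKM + 0.1), other scalings and filters, counts divided by 4, a replicate block and leaving out each library.

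The genes and lists were chosen with earlier results of these data known. Genes outside the 10 are named by a rule: in each list, the 2 largest changes in each direction that pass the test, with Fos, Jun, Egr1 and Fas, and the 3 most similar profiles to Nr4a1, Klf2 and Dusp1. Others are said to be named after their values were seen, or are markers or lists' exceptions. Values of a few single genes are not reported here.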

Additional observations from a re-analysis of the deposited data

How the results depend on the processing

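The 8 genes of the 10 that rose did so under each of the 17 alternatives, with log2 fold changes from 0.59 (the lowest, for Dusp2) to 2.08 (the highest, for Nr4a3). The number that rose was 8 to 9 when 1 library was left out, Nr4a2 joining them without MRL/lpr replicate 3. The log2 fold change of Dusp6 stayed between -0.24 and -0.03, with adjusted p-values from 0.137 to 0.885. Scaling by library size only moved the median log2 fold change of all genes from -0.01 to -0.13, and limma on log2(FPKM + 0.1) moved it to -0.11. The share of significant genes that were higher fell from 55.1% to 36.9% with that scaling, and was 39.6% to 41.3% with limma on FPKM. The log2 fold change of Fas ranged from -0.278 to 0.0886 when 1 library was left out, and turned positive without replicate 2 of either strain (0.0886 for MRL/lpr, 0.00129 for MRL/mpj).

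The genes of the 10 with a log2 fold change of at least 1 were 1 with scaling by library size only and with each limma setting, 2 with DESeq2 and 1 to 4 when 1 library was left out. Counts in short lists also moved. Limma on FPKM (each of the 3 settings) left 3 other KLF genes higher, and 2 were lower with scaling by library size only and with limma without a filter. Limma without a filter left 2 MAP kinase genes, 7 dissociation genes and 1 KLF2-responsive gene higher, and limma on log2(FPKM + 0.1) also left 1 KLF2-responsive gene. A single upstream factor gene (1) was higher with library size scaling, DESeq2, no count filter and each limma setting. With library size scaling 1 KLF2-responsive gene was lower. Without 1 library in turn, the other KLF genes that fell numbered 0 to 1, the other phosphatases 0 to 1, the ERK response genes 1 to 2 and the KLF2-responsive genes 0 to 1, while 2 to 5 MAP kinase genes and 1 to 4 upstream factor genes rose. The causes were not tested.

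The strains share replicate numbers, but same-numbered libraries did not deviate together (correlations across genes of -0.06, -0.034 and -0.077). This check cannot exclude that they were prepared together, and nothing in the labels pairs them. With a replicate block, 1754 genes were higher and 1309 lower, 8 of the 10 genes rose (2 with a log2 fold change of at least 1), Dusp10 was not called (adjusted p = 0.058), 0 other KLF genes and 0 other phosphatases fell, 1 ERK response gene fell and 1 upstream factor gene rose. The smallest exact permutation p for 3 against 3 libraries is 0.1. Nr4a3 and Nr4a2 rest on the fewest counts of the 10, and Klf8 had at most 69 counts in any library.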
